A study of Mus musculus with 9 samples.

Results

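The genes described here are the 8 members of the intestinal bile acid uptake and sensing route (Slc10a2, Fabp6, Slc51a, Slc51b, Nr1h4, Nr0b2, Fgf15 and Gpbar1), taken by symbol from a table of 45777 genes measured in mouse colon. Of the 8 genes, 7 had a read in any library and 6 had enough reads to be tested; Nr0b2 and Fgf15 did not. The profiles were bulk RNA sequencing of colon tissue from wild-type mice, with 3 libraries in each of 3 groups. CT libraries came from controls on a normal diet, IM libraries from mice on a normal diet whose hindlimb was immobilized in a cast for 10 days, and IM-HYA libraries from mice with the cast on a diet containing HYA, a name the labels do not spell out. The cast protocol stands in a field that all 9 samples share, so CT was read as uncast from its treatment label alone. HYA without a cast was not among the groups, and the labels give neither the age of the mice nor the stretch of colon taken.

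Bile acids made in the liver are recovered from the gut, mainly in the ileum, and the colon takes up a part of the rest. In the enterocyte, SLC10A2 (also called ASBT) imports them across the apical membrane, FABP6 carries them through the cytosol, and the SLC51A and SLC51B subunits together form the basolateral exporter OSTα-OSTβ. Bile acids in the cell activate the nuclear receptor FXR, the product of Nr1h4, whose known targets include Fabp6, Slc51a, Slc51b, Nr0b2 (the repressor SHP) and, in mouse, the hormone gene Fgf15, while GPBAR1 (TGR5) senses them at the cell surface.

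Library totals ran from 19638401 to 42917198 counts. Whether the 3 replicates of a group are separate animals is not in the labels, so the spread behind the p-values may not be that between animals. Replicates of a group differed by more than counting error, with a chi-square per gene of 39.8 to 1401 between pairs. The libraries differed in the level of Hox genes, which was used here as a measure of position along the colon. The distal Hox level, the mean log2 CPM (CPM, read counts scaled to library size) of 8 Hox genes of the distal gut, ran from -0.68 in IM 3 and 0.36 in IM 2 through 1.07 in IM-HYA 2, 1.26 in CT 3, 2.22 in CT 2, 3.36 in CT 1, 3.55 in IM-HYA 3 and 3.76 in IM-HYA 1 to 3.93 in IM 1. The IM group thus held both ends of the range, and its mean was 1.20 ± 2.42 (SD, n = 3) against 2.28 ± 1.05 in CT and 2.80 ± 1.496 in IM-HYA. Not all 8 Hox genes ran with their mean. Hoxa11 was highest in IM 2 (13.7 CPM) and Hoxc10, with 41 counts in all, in IM 3 (0.558 CPM), while the rest were highest in CT 1, IM 1 or IM-HYA 3. The share of counts on the ribosomal entry Rn18s-rs5 was 16.4% in IM 3, 11.3% in IM 2, 4.60% in IM-HYA 2 and 23.2% in CT 3. In the libraries with higher distal Hox levels it was 2.88% to 8.76%, and its part in the results was not tested. Colon markers other than the Hox genes did not follow the Hox level throughout. The 10 proximal colon markers summed to 1874 CPM in IM 3, the lowest sum, to 3616 CPM in IM 2, and to 2094 to 6319 CPM elsewhere. The 10 distal colon markers summed to 3121 CPM in IM 3, also the lowest, to 7112 CPM in IM 2, and to 5744 to 9997 CPM elsewhere. The summed colonocyte markers were at 8462 CPM in IM 3 and at 13780 to 16154 CPM in the other 8 libraries. Of the 20 small intestine markers, Apoa4 and Defa22 had no read in any library, and the most abundant, Fabp2 and Mep1a, ranged from 9.96 to 566 CPM and from 108 to 232 CPM. CT 2 stood apart, with 29.6% of its counts (95% Clopper-Pearson interval 29.56% to 29.59%, counting error only) on 14 pancreatic genes, against at most 0.506% in the other libraries. IM 3 had the highest summed adipocyte markers (3435 CPM, at most 911 CPM elsewhere), B cell markers (609 CPM, at most 78.3 CPM elsewhere), T cell markers (212 CPM, at most 28.4 CPM elsewhere) and endothelial markers (505 CPM, at most 260 CPM elsewhere). In bulk tissue, fewer cells of a type and less RNA per cell cannot be told apart.

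Slc10a2, the apical importer, was at 5.49, 1.71 and 4.74 CPM in CT 1 to CT 3, at 3.11, 23.6 and 67.7 CPM in IM 1 to IM 3, and at 12.2, 6.002 and 9.99 CPM in IM-HYA 1 to IM-HYA 3. IM 2 and IM 3 lay above all other libraries, while IM 1 lay within the range of CT. The group means were 3.98 ± 2.002 CPM in CT, 31.5 ± 33.0 CPM in IM and 9.39 ± 3.13 CPM in IM-HYA (SD, n = 3). The log2 fold change of IM against CT was 2.98 (SE 0.88) and did not pass after Benjamini-Hochberg adjustment over all 18414 genes tested (edgeR quasi-likelihood, unadjusted p = 0.00753, adjusted p = 0.621), whereas DESeq2 put it just under the threshold of 0.05 (adjusted p = 0.0499). All 3 IM-HYA libraries lay above all 3 CT libraries, with a log2 fold change of 1.23 (SE 0.83, adjusted p = 0.855). In that comparison 10.8% of all genes tested were higher with no overlap between the groups, so a separation of this kind was common. Against IM, the IM-HYA group differed by a log2 fold change of -1.74 (SE 0.84, adjusted p = 0.604).

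Fabp6, the cytosolic carrier, followed a similar outline at a smaller range. Its levels were 9.05, 4.92 and 5.25 CPM in CT, 2.18, 14.7 and 20.1 CPM in IM, and 4.67, 2.19 and 5.32 CPM in IM-HYA, in the order of replicates 1 to 3. IM 2 and IM 3 were again the highest of the 9 libraries, and IM 1 was the lowest. The means were 6.41 ± 2.30, 12.3 ± 9.18 and 4.06 ± 1.65 CPM. No contrast passed with all libraries: the log2 fold change was 0.94 (SE 0.65, adjusted p = 0.692) for IM against CT, -1.60 (SE 0.66, unadjusted p = 0.0378, adjusted p = 0.604) for IM-HYA against IM, and -0.66 (SE 0.65, adjusted p = 0.881) for IM-HYA against CT. Without IM 1, the difference between IM-HYA and IM was -2.09 and passed (edgeR adjusted p = 0.0436). In that fit 871 of 18864 genes tested passed the contrast, against 0 with all libraries. It leaves IM with IM 2 and IM 3, the libraries with the lowest distal Hox levels (0.36 and -0.68).

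**Figure D1:**
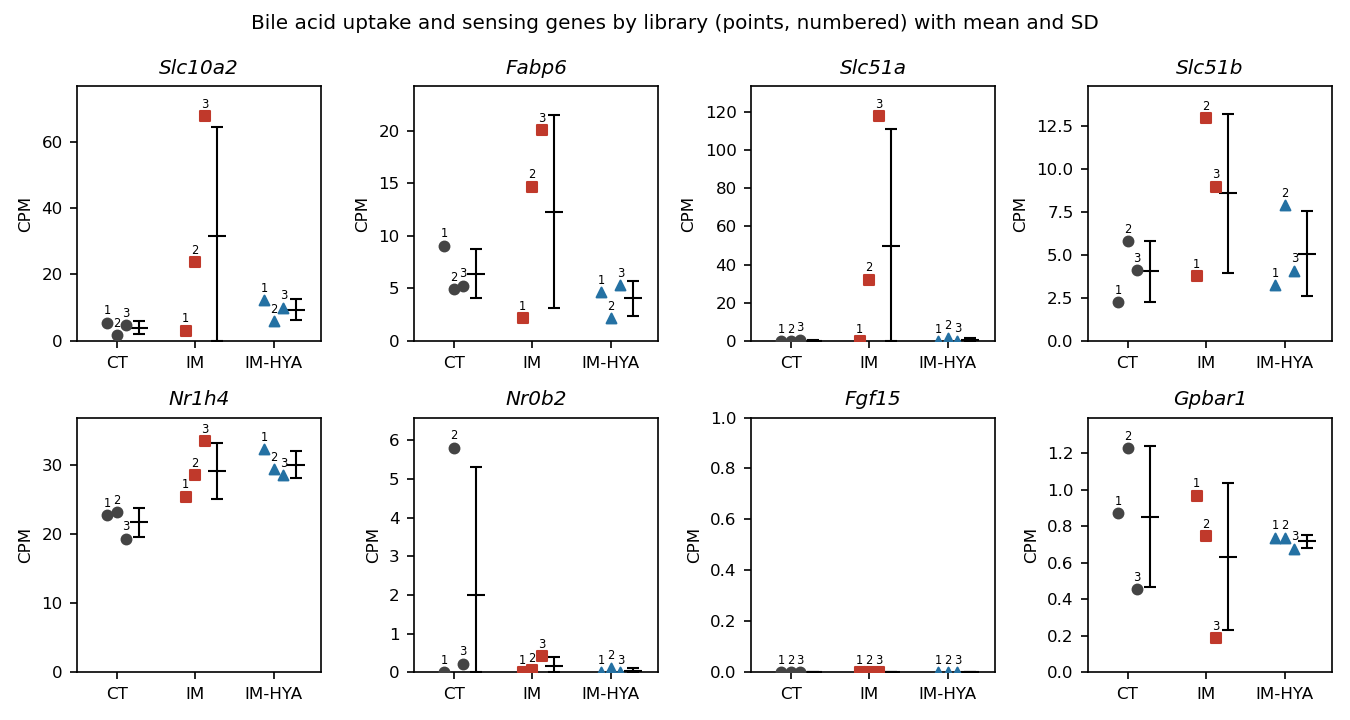
Level of each of the 8 genes in CPM (vertical axes, each from 0) in the 3 groups; numbered points are libraries, and the bars beside them show the mean ± SD (n = 3), with the lower arm stopped at 0. The IM points of Slc10a2, Fabp6 and Slc51a are split between IM 1 and the pair of IM 2 and IM 3, whereas the 9 points of Nr1h4 lie close together, between 19.3 and 33.4 CPM.

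Slc51a, the larger exporter subunit, had the widest range. It had no read in CT 1, CT 2, IM 1 and IM-HYA 1, where a count of 0 allows up to 0.0707, 0.205, 0.0676 and 0.0599 CPM (3 counts, counting error only). It reached 0.628 CPM in CT 3, 0.145 CPM in IM-HYA 3 and 1.71 CPM in IM-HYA 2, from 11, 6 and 86 counts. IM 2 and IM 3 held 32.1 and 118 CPM, from 1033 and 2531 counts, so 2 libraries of 1 group carried nearly all reads of this gene. The means were 0.209 ± 0.362 CPM in CT, 49.9 ± 60.8 CPM in IM and 0.620 ± 0.951 CPM in IM-HYA, and the SD exceeded the mean in every group. The fitted log2 fold changes were 7.98 (SE 3.02, unadjusted p = 0.0287, adjusted p = 0.621) for IM against CT, -6.32 (SE 2.74, unadjusted p = 0.0485, adjusted p = 0.604) for IM-HYA against IM and 1.66 (SE 2.49, adjusted p = 0.928) for IM-HYA against CT. With CT resting on 11 counts of CT 3, the sizes of the fits against CT are poorly determined.

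Slc51b, the smaller exporter subunit, was read in all libraries. It was at 2.24, 5.81 and 4.11 CPM in CT, at 3.78, 12.97 and 8.98 CPM in IM, and at 3.23, 7.88 and 4.09 CPM in IM-HYA. The highest libraries were IM 2, IM 3 and IM-HYA 2, and all 3 groups overlapped. The means were 4.05 ± 1.78, 8.57 ± 4.60 and 5.07 ± 2.47 CPM, with log2 fold changes of 1.09 (SE 0.52, adjusted p = 0.628) for IM against CT, -0.76 (SE 0.52, adjusted p = 0.618) for IM-HYA against IM and 0.33 (SE 0.52, adjusted p = 0.930) for IM-HYA against CT.

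The exporter works only as a pair, so the subunits were also compared per length, on the deposited TPM scale. The TPM of Slc51a divided by that of Slc51b was 4.15 in IM 3 and 0.783 in IM 2. It was 0.0687 in IM-HYA 2, 0.0441 in CT 3 and 0.0109 in IM-HYA 3, and 0 in the other 4 libraries. Slc51b was thus the more abundant subunit transcript in 8 of 9 libraries. In IM 3 it was not, with 114 TPM of Slc51a. Slc10a2 stayed below Slc51b in all 9 libraries, at ratios from 0.0343 in CT 2 to 0.901 in IM 3.

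**Figure D2:**
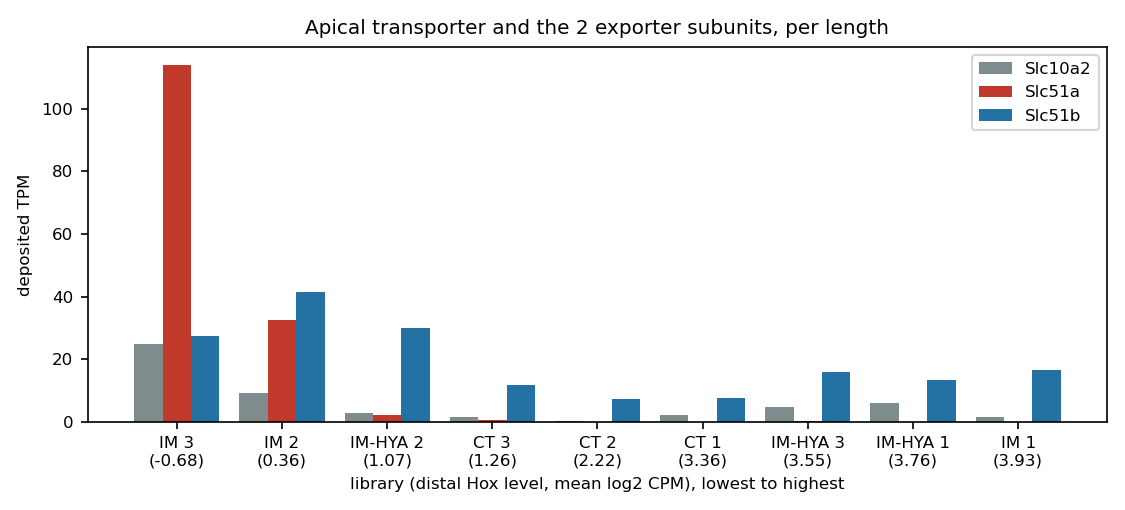
Deposited TPM (vertical axis, from 0) of Slc10a2, Slc51a and Slc51b in each library, ordered from the lowest to the highest distal Hox level (horizontal axis, mean log2 CPM in brackets). Slc51a bars are visible in the libraries at the left, reaching 114 TPM in IM 3, and are at 0 in CT 2, CT 1, IM-HYA 1 and IM 1, while Slc51b is present throughout at 7.25 to 41.6 TPM.

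The levels of the exporter genes were compared with the distal Hox level. Within each of the 3 groups, Slc51a was highest in the library with the lowest distal Hox level and fell or was level at each step up. Across groups the order was not strict: IM-HYA 3, at a distal Hox level of 3.55, held 6 counts, while CT 2 and CT 1, at 2.22 and 3.36, held none. Slc51b was higher in IM 2 than in IM 3 and higher in CT 2 than in CT 3. In a fit with group and distal Hox level together, the log2 CPM of Slc51a fell by 2.63 per unit of distal Hox level (SE 0.48, edgeR adjusted p = 0.0110, DESeq2 adjusted p = 1.01e-05). That of Slc51b fell by 0.38 (SE 0.10, edgeR adjusted p = 0.0399, DESeq2 adjusted p = 0.00368). These were the 2 of 6 tested genes whose slope passed, beside 14.5% of all genes tested (7.15% with a falling slope). The slopes of Slc10a2 (-0.49, SE 0.31, adjusted p = 0.313) and Fabp6 (-0.27, SE 0.25, adjusted p = 0.489) did not pass: both were highest in IM 3 and IM 2, but within CT and within IM-HYA neither was highest in the library with the lowest distal Hox level. Both turned positive without IM 1, at 0.15 and 0.37. The Slc51a slope no longer passed without IM 1 (-2.13, adjusted p = 0.258), nor without IM 2 and IM 3 together (-2.19, adjusted p = 0.170). The Slc51b slope passed when CT 2 or IM 3 was left out, but not when any other single library was (adjusted p from 0.0531 without CT 3 to 0.594 without IM 1).

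**Figure D3:**
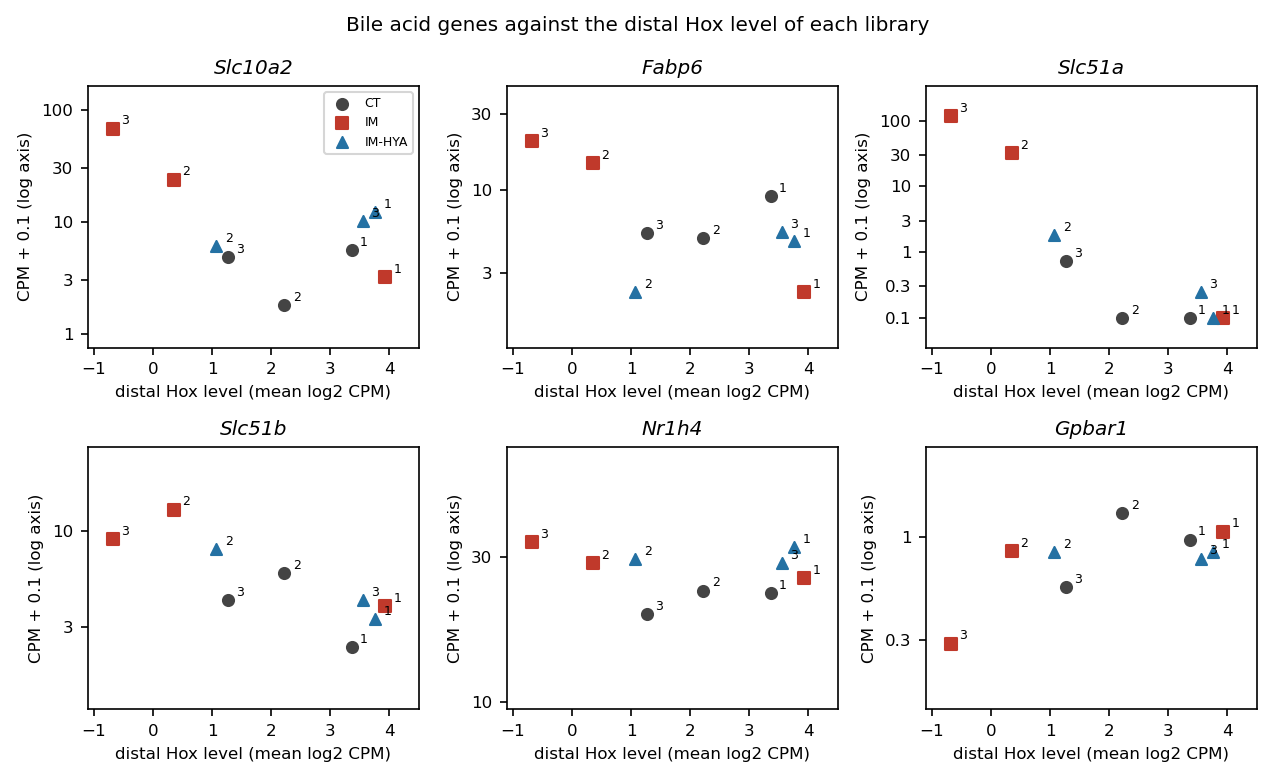
Level of the 6 tested genes in each library (CPM + 0.1, log axis) against the distal Hox level (mean log2 CPM); colours and shapes give the group and numbers the replicate. Slc51a falls from 118 CPM in IM 3 at the left to no reads in IM 1 at the right, whereas Nr1h4 stays between 19.3 and 33.4 CPM across the range.

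With the distal Hox level in the fit, the estimates for the importer, carrier and exporter genes were nearer 0 in both comparisons with IM. For IM against CT, the log2 fold change was 3.28 (SE 1.63, adjusted p = 0.523) for Slc51a, 1.71 (SE 1.03, adjusted p = 0.585) for Slc10a2, 0.59 (SE 0.35, adjusted p = 0.570) for Slc51b and 0.29 (SE 0.85, adjusted p = 0.919) for Fabp6. For IM-HYA against IM, they were -0.41 (SE 2.81) for Slc51a, -0.11 (SE 1.24) for Slc10a2, -0.13 (SE 0.36) for Slc51b and -0.76 (SE 0.96) for Fabp6. For IM-HYA against CT, those of the importer and exporter genes were instead further from 0, at 2.87 (SE 1.54, adjusted p = 0.631) for Slc51a, 1.60 (SE 0.85, adjusted p = 0.636) for Slc10a2 and 0.46 (SE 0.34, adjusted p = 0.738) for Slc51b, and that of Fabp6 was -0.47 (SE 0.67, adjusted p = 0.885). IM 2 and IM 3 carried both the lowest distal Hox levels and the highest levels of these genes within 1 group, and the parts of the cast and of the distal Hox level in the IM values cannot be told apart. The 20 small intestine markers summed to 870 CPM in IM 2 and 359 CPM in IM 3, against 231 to 655 CPM in the other 7 libraries. Several low members of that list ran highest in IM 2 and IM 3: Sis was at 1.43 and 3.02 CPM (at most 0.219 CPM elsewhere), Apoa1 at 1.21 and 1.40 CPM (at most 0.0998 CPM elsewhere) and Fabp1 at 0.498 and 0.791 CPM (at most 0.114 CPM elsewhere). Apoc3 was at 8.70 CPM in IM 3 and at most 0.342 CPM elsewhere. The enteroendocrine gene Nts was at 14.9 and 37.1 CPM in IM 2 and IM 3 and at most 0.319 CPM elsewhere. The enteroendocrine markers did not move together: Chga (264 CPM) was also highest in IM 3, whereas Gcg, Pyy, Insl5 and Neurod1 were lowest there. All 10 summed to 625 CPM in IM 2 and 560 CPM in IM 3, against 391 to 1016 CPM elsewhere. B cell and adipocyte markers were high in IM 3 and not in IM 2 (8.05 and 411 CPM). The part of other tissue or cell types in the levels of Slc10a2, Fabp6 and Slc51a was not tested.

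**Figure D4:**
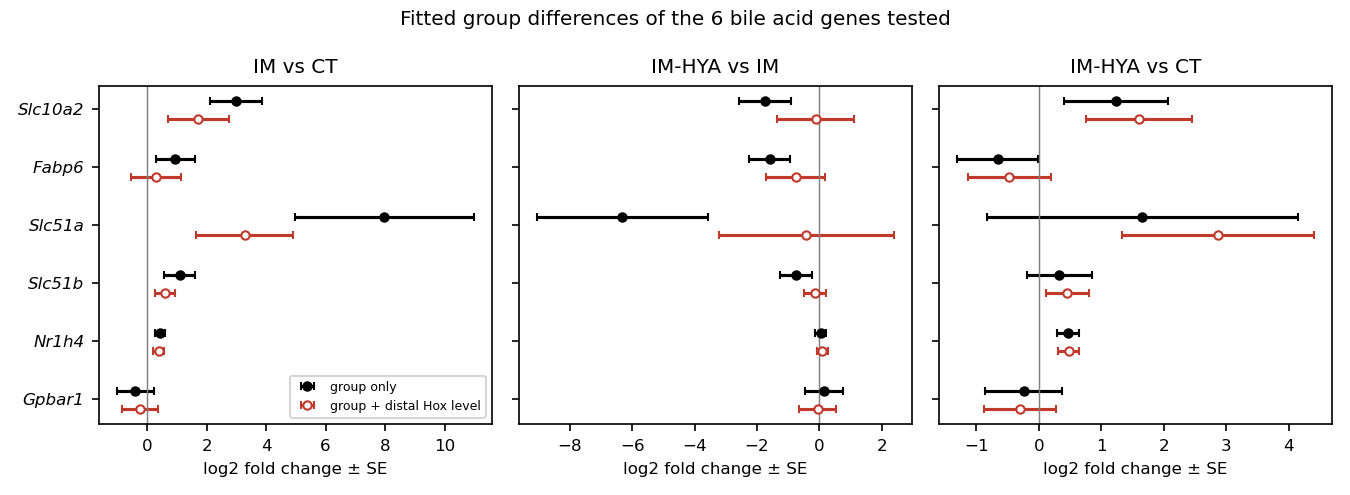
Fitted log2 fold changes ± SE (horizontal axes) of the 6 tested genes in the 3 comparisons, with group alone (filled) and with group and distal Hox level (open). The Slc51a estimate for IM against CT moves from 7.98 to 3.28 and that of Slc10a2 from 2.98 to 1.71, while Nr1h4 moves only from 0.42 to 0.38; no estimate passed after adjustment in either fit.

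The annotation around the 2 exporter genes and the importer gene bears on these counts. In the RefSeq annotation of GRCm38.p6, all 3 lie on the minus strand: Slc51a at chr16:32475578-32487879, Slc51b at chr9:65412753-65422773 and Slc10a2 at chr8:5083219-5105287. In GENCODE M21 an exon of Slc51a overlaps one of Pcyt1a on the opposite strand, and an exon of Slc51b overlaps one of Rasl12. No source used here says whether strand was used in counting, so it is not known to which gene reads in the overlaps were counted. In CT 1, CT 2, IM 1 and IM-HYA 1, no read was counted to Slc51a, with Pcyt1a at 30.6 to 41.2 CPM. Pcyt1a stayed at 29.1 to 41.2 CPM with a slope of 0.04 (adjusted p = 0.595), and Rasl12 at 3.48 to 8.81 CPM with a slope of 0.19 (adjusted p = 0.216), so the slope passed for neither partner.

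The upstream sequences of the importer and the exporter subunits are shown because these 3 genes encode the membrane transporters of the route. They are from RefSeq (GRCm38.p6), minus strand, written 5′ to 3′ in the direction of the gene, and end before the first start annotated in RefSeq or GENCODE. Capitals mark matches to the motifs named after them, on either strand.
Slc51a, chr16:32487880-32488129: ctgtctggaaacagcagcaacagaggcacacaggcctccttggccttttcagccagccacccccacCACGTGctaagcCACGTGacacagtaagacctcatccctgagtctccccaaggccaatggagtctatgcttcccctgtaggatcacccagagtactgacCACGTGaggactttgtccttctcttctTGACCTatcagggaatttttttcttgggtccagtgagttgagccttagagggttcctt
Slc51b, chr9:65422956-65423023: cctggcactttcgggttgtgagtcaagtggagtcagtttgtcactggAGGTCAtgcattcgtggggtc
Slc10a2, chr8:5105352-5105537: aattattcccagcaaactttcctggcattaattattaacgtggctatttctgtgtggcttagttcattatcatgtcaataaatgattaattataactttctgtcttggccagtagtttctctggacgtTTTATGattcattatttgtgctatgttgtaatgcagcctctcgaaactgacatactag

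Both exporter windows hold the nuclear receptor half-site AGGTCA (in Slc51a as its complement on the opposite strand), a motif present in 14.0% of the 32851 RefSeq windows of 250 bases before a start. The complete FXR element AGGTCANTGACCT was in none of the 7 windows available for these genes and in 0.00609% of all. The Slc51a window holds 3 copies of the E-box CACGTG; 6.02% of all windows hold it at least once and 0.0609% hold 3 or more. The Slc10a2 window holds the CDX motif TTTATG, present in 10.8% of all windows. The GATA motif AGATAA (9.99% of all windows) was in none of the 3 shown. Of these 3, the sequences of Slc51b and Slc10a2 are 68 and 186 bases long, so the shares over windows of 250 bases are not matched to them in length. AGGTCA is also part of the FXR element, and the other motifs share no full match with each other. These matches describe letters in a window only, and the motifs were picked with the windows in view.

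Nr1h4, which encodes the bile acid sensor FXR, was the steadiest of the genes. It was at 22.7, 23.2 and 19.3 CPM in CT, at 25.4, 28.6 and 33.4 CPM in IM, and at 32.2, 29.4 and 28.5 CPM in IM-HYA, so its highest library was 1.73 times its lowest. All 6 cast libraries lay above all 3 CT libraries, and IM and IM-HYA overlapped. The means were 21.7 ± 2.096, 29.2 ± 4.03 and 30.04 ± 1.95 CPM. The log2 fold change was 0.42 (SE 0.18, unadjusted p = 0.0414, adjusted p = 0.621) for IM against CT and 0.47 (SE 0.18, unadjusted p = 0.0275, adjusted p = 0.854) for IM-HYA against CT, 2 comparisons that share the CT libraries. Genes higher with no overlap made up 4.43% and 10.8% of all genes tested in these 2 comparisons taken separately. The share of genes higher in both was not counted. IM-HYA and IM differed by a log2 fold change of 0.04 (SE 0.18, adjusted p = 0.927). The slope on the distal Hox level was -0.03 (SE 0.05, adjusted p = 0.696), and with that level in the fit the differences from CT were 0.38 (SE 0.18) and 0.48 (SE 0.17), with adjusted p = 0.512 and 0.574.

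Of the FXR targets Fgf15 and Nr0b2, the first was not detected and the second was low outside CT 2. Fgf15, the enterocyte hormone that signals to the liver, had 0 counts in all 9 libraries out of 297008168, which allows a level of up to 0.00955 CPM over the libraries together (3 counts, counting error only). It lies at chr7:144896532-144900953 on the plus strand. The antisense genes Gm26793 and Gm39119 overlap it; the first stayed at or under 0.326 CPM and the second had no read. Nr0b2, the repressor SHP at chr4:133553376-133556686, had 0, 85 and 4 counts in CT, 0, 2 and 9 in IM, and 0, 6 and 0 in IM-HYA. CT 2, the library with 29.6% of its counts on pancreatic genes, held 85 of the 106 counts (5.81 CPM), and no other library exceeded 0.419 CPM. The part of pancreatic RNA in the Nr0b2 level of CT 2 was not tested.

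Gpbar1, the cell surface receptor, was low throughout. It was at 0.872, 1.23 and 0.456 CPM in CT, at 0.968, 0.746 and 0.186 CPM in IM, and at 0.738, 0.738 and 0.677 CPM in IM-HYA, with overlap between all groups. The lowest value was that of IM 3, the library in which Slc10a2, Fabp6 and Slc51a were highest. The means were 0.853 ± 0.387, 0.634 ± 0.403 and 0.718 ± 0.0351 CPM, and the log2 fold changes were -0.40 (SE 0.62, adjusted p = 0.860) for IM against CT, 0.16 (SE 0.61, adjusted p = 0.922) for IM-HYA against IM and -0.24 (SE 0.61, adjusted p = 0.960) for IM-HYA against CT. Its slope was 0.24 (SE 0.17, adjusted p = 0.353), the only one of the 6 above 0. Macrophages are among the cells known to express this receptor; the 12 macrophage markers summed to 345 to 449 CPM in CT, 278 to 595 CPM in IM and 280 to 321 CPM in IM-HYA, with the highest sum in IM 3. C1qa was at 269 CPM there and at 66.1 to 126 CPM elsewhere, and C1qc (124 CPM), Cd163 (20.2 CPM) and Cx3cr1 (19.8 CPM) were also highest in IM 3. Adgre1 (3.395 CPM), Cd14 (7.16 CPM) and Fcgr1 (0.930 CPM) were instead, like Gpbar1, at their lowest in IM 3. The rest of the 12 were at neither end of their range there.

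Across the 8 genes, 0 of the 6 tested passed in any of the 3 comparisons, where 0.00543%, 0% and 0.00543% of all genes tested passed for IM against CT, IM-HYA against IM and IM-HYA against CT. At an unadjusted p under 0.05, 3 were higher in IM than in CT (Slc10a2, Slc51a and Nr1h4; 4.83% of all genes were), 2 were lower in IM-HYA than in IM (Fabp6 and Slc51a; 6.39% of all genes), and Nr1h4 alone was higher in IM-HYA than in CT (2.31% of all genes). DESeq2 called 1, 0 and 0 of the 6, beside 0.353%, 0.234% and 0.0815% of all genes. The median log2 fold changes of the 6 were 1.01, -1.18 and 0.40, against 0.04, -0.01 and 0.01 over all genes tested, and with the distal Hox level in the fit 0.49, -0.12 and 0.47. The smallest adjusted p of the 6 for any difference among the 3 groups was 0.673, where 0.00543% of all genes passed.

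On the TPM scale, which allows genes to be compared, the order of the medians over the 9 libraries was Nr1h4 (24.2 TPM, range 7.08 to 32.8), Fabp6 (18.2 TPM, 5.91 to 58.9), Slc51b (15.9 TPM, 7.25 to 41.6), Slc10a2 (2.71 TPM, 0.249 to 24.8), Gpbar1 (1.29 TPM, 0.242 to 2.04), Slc51a (0.173 TPM, 0 to 114), Nr0b2 (0.0760 TPM, 0 to 2.78) and Fgf15 (0). Each gene's range overlapped that of the next in this order, apart from Fgf15, which had no read. The lowest TPM of Nr1h4, Fabp6, Slc51b and Slc10a2 was in each case that of CT 2, the library with 29.6% of its counts on pancreatic genes. In CPM, which used TMM-scaled library sizes, only Slc10a2 was lowest in CT 2, and Nr1h4 was there at 23.2 CPM. The carrier exceeded the importer in every library, at a TPM ratio of Fabp6 to Slc10a2 from 2.38 in IM 3 to 23.8 in CT 2.

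The rest of the bile acid pathway was followed through 5 lists holding 51 genes, 39 of them tested. None passed in a comparison of groups, and 6 results in the 3 comparisons had an unadjusted p under 0.05 (5.13% of 117, against 6.93% over all genes tested). Ppara, a fatty acid receptor among the partners and regulators of FXR, had log2 fold changes of 2.07 (SE 0.59) for IM against CT and -1.70 (SE 0.58) for IM-HYA against IM, with adjusted p = 0.621 and 0.604. Its levels were 29.5 and 78.3 CPM in IM 2 and IM 3 and at most 16.9 CPM elsewhere, a split like that of Slc10a2. Of the same list, Hnf4g differed by 0.90 (SE 0.33, adjusted p = 0.604) for IM-HYA against IM, and Gata4, a repressor of Slc10a2 in the proximal small intestine of mouse, by -4.71 (SE 1.84, adjusted p = 0.854) for IM-HYA against CT. Gata4 was at 0.377, 9.29 and 0 CPM in CT, so its CT level rested on CT 2, the library with pancreatic transcripts, and at 0.120 ± 0.121 CPM in IM-HYA.

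Among the transporters, the apical pump gene Abcc2 was at 1.11 ± 0.513 CPM in CT and 2.34 ± 0.875 CPM in IM-HYA, a log2 fold change of 1.06 (SE 0.46, unadjusted p = 0.0449, adjusted p = 0.854). The basolateral pump gene Abcc3, another exit route for bile acids, was far more abundant, at 97.0 ± 17.8, 124 ± 32.0 and 123 ± 18.4 CPM in CT, IM and IM-HYA. The liver transporters Abcb11 and Slc10a1 had no read. Of the receptors, Rxra, the partner with which FXR binds DNA, differed by 0.30 (SE 0.16, adjusted p = 0.644) for IM against CT. Of the clearance genes, Cyp3a13 differed by 0.45 (SE 0.21) and Sult2b1 by -0.50 (SE 0.24) for IM against CT, with adjusted p = 0.621 and 0.628. Cyp7a1, the rate-limiting enzyme of bile acid synthesis in liver, had no read.

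Along the distal Hox level, 12 of the 39 genes passed, 7 rising and 5 falling. In the Fgf15 axis, Malrd1, which promotes FGF15 production in mouse, fell by 2.35 per unit (SE 0.39, adjusted p = 0.00577), a slope near that of Slc51a. Malrd1 was at 6.14 CPM in IM 3, 2.36 CPM in IM 2, 1.68 CPM in IM-HYA 2 and 1.48 CPM in CT 3, and at or under 0.118 CPM in the other 5 libraries. Klb, which encodes the co-receptor of FGF15, rose by 0.81 (SE 0.16, adjusted p = 0.0154) and Cyp27a1, a sterol hydroxylase, by 0.40 (adjusted p = 0.00838). Of the regulators, Cdx2 (-0.69, adjusted p = 0.0154) and Ppara (-0.48, adjusted p = 0.00952) fell, and Hnf4a (0.37, adjusted p = 0.0113) and Gata6 (0.24, adjusted p = 0.0426) rose. The receptor genes Vdr (0.18, adjusted p = 0.0267) and Nr1i2, which encodes PXR (0.17, adjusted p = 0.0493), rose, as did the efflux pump gene Abcc4 (0.24, adjusted p = 0.0288). The organic anion transporter gene Slco4a1 (-0.42, adjusted p = 0.0345) and the glucuronosyltransferase gene Ugt1a1 (-0.62, adjusted p = 0.00560) fell. The lists therefore moved in both directions along the Hox level, beside 7.34% of all genes tested that rose and 7.15% that fell.

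**Figure D5:**
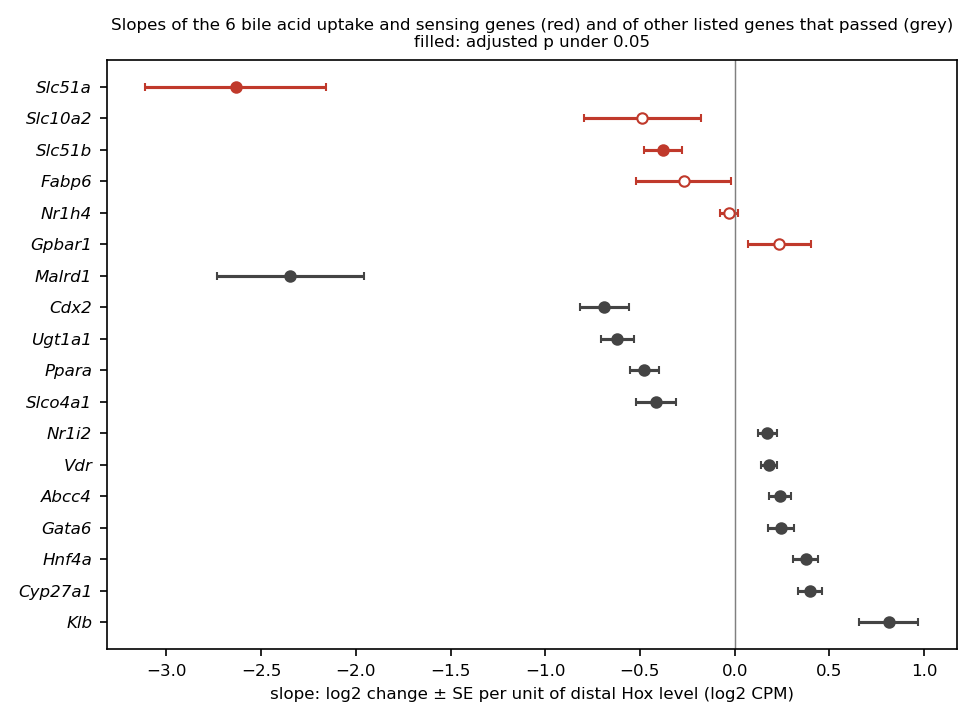
Slope ± SE of log2 CPM per unit of distal Hox level (horizontal axis) for the 6 tested bile acid uptake and sensing genes (red) and the 12 other listed genes that passed (grey); filled points had an adjusted p under 0.05. Slc51a at -2.63 and Malrd1 at -2.35 stand far to the left of the rest, and Klb at 0.81 lies furthest to the right.

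The genes whose log2 CPM ran most like that of each gene over the 9 libraries were found among 14760 named protein-coding genes, as a description of libraries that also share depth, composition and Hox level. For Slc51a they were Prap1 (Pearson r = 0.989), Cyp2c65 (r = 0.986) and Ank3 (r = 0.983). Prap1 held 32.5 and 94.6 CPM in IM 2 and IM 3, 3.11 CPM in IM-HYA 2, 2.57 CPM in CT 3 and at most 0.314 CPM elsewhere, which is the order of Slc51a at the top. For Slc51b they were Ces1f (r = 0.958), Ano10 (r = 0.956) and Ccdc61 (r = 0.951), and for Slc10a2 they were Erich2 (r = 0.957), Ago3 (r = 0.954) and Cdc37l1 (r = 0.948). For Fabp6 they were Dph5 (r = 0.950), Nol10 (r = 0.933) and Actr3b (r = 0.932). For Nr1h4 they were Letmd1 (r = 0.963), Tef (r = 0.910) and Whrn (r = 0.898), and for Gpbar1 they were Tmem216 (r = 0.978), Cyhr1 (r = 0.975) and Tmem63b (r = 0.967). None of these 18 genes was one of the 8.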

How the data were processed

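Colon RNA was profiled in 9 libraries. The submitters' processing notes name StringTie 2.1.3b, HISAT2 2.1.0, Trimmomatic and bcl2fastq 2.20.0, and the build GRCm38 (mm10). The strand setting and annotation release are not given in the sources used here. A single table was deposited by the authors with, for each gene and library, a whole-number read count, an FPKM scaled by gene length and library total, and a TPM scaled by length to a common sum. The deposited counts entered the tests, the deposited FPKM values entered alternatives only, and the deposited TPM values served to compare genes. Of 45777 gene identifiers, 45679 matched RefSeq.

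Genes passing filterByExpr (minimum count 10, minimum total 15) were fitted together with edgeR 4.0.16 (TMM, robust quasi-likelihood) in R 4.3.3, with group as the only term. Contrasts were two-sided and adjusted by Benjamini-Hochberg over all 18414 genes. CPM used TMM-scaled library sizes. The distal Hox level (Hoxa11, Hoxa13, Hoxb13, Hoxd10, Hoxd11, Hoxd12, Hoxd13, Hoxc10; prior count 2) was added for slopes. Alternatives included DESeq2 1.42.0, limma 3.58.1 on log2(FPKM + 1) and log2(FPKM + 0.1), other scalings and filters, and leaving out libraries. No pair of replicates was identical (chi-square per gene 39.8 or more).

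The genes and lists were chosen with earlier results of these data known. Named by rule were all 8 genes, every other listed gene that passed, otherwise up to 3 a list by the smallest p, and the 3 genes most correlated with each; Abcc3, Abcb11, Slc10a1 and Cyp7a1 were named after their values were seen. Nr1i2, Vdr and Ugt1a1 were also among the 3 of their lists. Figures were drawn with matplotlib 3.10.9.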

Additional observations from a re-analysis of the deposited data

How the results depend on the processing

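With 6 residual degrees of freedom, differences in low or variable genes such as Slc51a and Gpbar1 were hard to detect. A p that missed the threshold does not show equality, and Nr0b2 was too low to be tested. Of the 6 tested genes, 0 passed in each comparison of groups under the alternatives run, except Slc10a2 for IM against CT with DESeq2 (1 gene) and Fabp6 for IM-HYA against IM without IM 1 (1 gene). The number of genes passing over the whole table varied. For IM against CT it was 1, and 65 with DESeq2, 2 with limma on log2(FPKM + 0.1), 0 with log2(FPKM + 1) and no filter, 0 without CT 2 and IM 3 together, 16 without IM 2 and IM 3 together, and 1 to 2 with 1 library left out. For IM-HYA against IM it was 0 (1411 at an unadjusted p under 0.05), and 43 with DESeq2, 1 with limma at either FPKM offset with the filter, 1 without CT 2 and IM 3 together, 10 without IM 2 and IM 3 together, and 0 to 871 with 1 library left out, the highest without IM 1. For IM-HYA against CT it was 1, and 15 with DESeq2, 7 and 3 with limma on log2(FPKM + 1) and log2(FPKM + 0.1), 0 with log2(FPKM + 1) and no filter, and 1 to 2 with 1 library left out. For any difference among groups it was 1, and 90 with DESeq2, 2, 4 and 0 with the same FPKM settings, 2 without CT 2 and IM 3 together, 20 without IM 2 and IM 3 together, and 1 to 2 with 1 library left out.

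The slope passed for 2668 genes, and for 4353 with DESeq2, 1644 with log2(FPKM + 0.1), 173 with log2(FPKM + 1) and no filter, 5014 without group terms, 130 without IM 2 and IM 3 together, and 0 to 3006 with 1 library left out (0 without IM 1). Of the 6 genes, 2 passed. It was 1 with no count filter, with log2(FPKM + 0.1), where 5 of the 6 were tested, with Hoxd13 alone and with the anterior Hox level. It was 0 with log2(FPKM + 1) and no filter and without IM 2 and IM 3 together, and 0 to 2 with 1 library left out. The Slc51a slope kept its sign throughout and did not pass with log2(FPKM + 1) and no filter (-0.94), without IM 2 and IM 3 together (-2.19) or with the anterior Hox level, its sign turned so that it rises distally (-3.62); it ran from -3.27 to -2.13 with 1 library left out. The Slc51b slope kept its sign as well and did not pass with no count filter (-0.37), log2(FPKM + 1) with and without the filter (-0.25 in both), log2(FPKM + 0.1) (-0.27), Hoxd13 alone (-0.16), the anterior Hox level (-0.42) or without IM 2 and IM 3 together (-0.45); it ran from -0.47 to -0.31 with 1 library left out. The Slc10a2 slope passed with log2(FPKM + 1) (adjusted p = 0.0124) and with the anterior Hox level (adjusted p = 0.0348).

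Replicate numbers did not pair the libraries: 5 of 9 same-numbered pairs had a correlation of deviations over 0.1 (range -0.27 to 0.36), and 4 of 9 libraries matched best with their own number. With the numbers as a replicate block, the slope passed for 32 genes and 0 of the 6, with Slc51a at -1.86 and Slc51b at -0.16; the block changed no other call of the 6.

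Signs turned as follows. Without IM 2 and IM 3 together, IM against CT became -0.34 for Slc10a2, -1.53 for Fabp6, -5.85 for Slc51a and -0.0742 for Slc51b, and IM-HYA against IM became 1.59, 0.89, 7.56 and 0.42; the lone IM library was assumed to vary like the other groups, and the slopes of Slc10a2 and Fabp6 became 0.26 and 0.42. With 1 library left out these slopes ran from -0.73 to 0.15 and from -0.51 to 0.37, above 0 without IM 1. In IM-HYA against CT the log2 fold changes ran from -1.42 to 7.54 for Slc51a and from -0.14 to 0.72 for Slc51b, below 0 without IM-HYA 2; the 7.54 is without CT 3, where CT had no Slc51a read and the size depends on the prior count. Nr1h4 turned in IM-HYA against IM, where it was near 0, without IM 1 and without IM-HYA 1 (range with 1 library left out -0.0370 to 0.156), and its slope turned with the FPKM settings (0.0701, 0.0755 and 0.0701), without CT 2 and IM 3 together (0.00242), without IM 2 and IM 3 together (0.0436), and without IM 1 or IM 3 (range with 1 library left out -0.0464 to 0.0312). Gpbar1 turned in IM against CT with log2(FPKM + 1) and no filter (0.0127), without CT 2 and IM 3 together (0.30), without IM 2 and IM 3 together (0.21) and without IM 3 (range with 1 library left out -0.84 to 0.0153). It turned in IM-HYA against IM with the distal Hox level (-0.0579), without CT 2 and IM 3 together (-0.25), without IM 2 and IM 3 together (-0.43) and without IM 3 (range -0.25 to 0.60). In IM-HYA against CT it turned with log2(FPKM + 1) and no filter (0.18), without CT 2 and IM 3 together (0.0461) and without CT 2 (range -0.53 to 0.0550). The causes were not tested. Leaving out IM 2 and IM 3 together, the older form of the edgeR test and the anterior Hox level were chosen after seeing the data.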
